A study of Mus musculus with 49 samples.

Results

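The nuclear genes of oxidative phosphorylation were measured in the neocortex of 49 mice as 96 genes of the 18220 tested. They were chosen by symbol: every row starting with Nduf, Uqcr or Atp5, every row starting with Cox4 to Cox8, and Sdha, Sdhb, Sdhc, Sdhd, Cycs and Cyc1. Of 112 such rows, 11 with -ps in the name were left out, and 5 more did not reach 10 counts in 10 mice. Just inside that limit stood Cox6c2, with 10 counts in 12 mice and a median count of 7, and Cox7a1, with 10 counts in 20 mice and a median count of 9. Just outside stood Cox8b, with 10 counts in 6 mice and a median count of 6, and Ndufs6b, with 10 counts in 1 mouse. All 96 genes passed the low count filter of the test, and 94 had at least 10 counts in every mouse.

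Oxidative phosphorylation is carried out by several protein complexes in the inner mitochondrial membrane. Complexes I and II pass electrons from NADH and succinate to ubiquinone, complex III passes them on to cytochrome c, and complex IV passes them to oxygen. Complexes I, III and IV pump protons, and ATP synthase uses the proton gradient to make ATP. Most subunits are encoded in the nucleus and a small number in the mitochondrial DNA, and neurons draw most of their ATP from this system. The 96 genes comprised 7 core subunits, 32 accessory subunits and 8 Ndufaf assembly factors of complex I, 4 genes of complex II, 9 of complex III, cytochrome c (Cycs), 18 of complex IV and 17 of ATP synthase. They lay on 19 chromosomes, with 3 on X. Classes were set by symbol, so that the accessory subunits include Ndufb4b and Ndufb4c beside Ndufb4, and complex IV includes Cox6c2 beside Cox6c. Ndufb4 shares 33.4% of the 100-base stretches in its transcripts with Ndufb4c.

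All mice came from mixed C57BL/6J x C3H/HeJ stock and carried the tetO-hTDP43ΔNLS allele, human TDP-43 that lacks the nuclear localization signal, which doxycycline in the chow keeps silent. The 32 bigenic (rNLS8) mice also carried NEFH-tTA, in which the neurofilament heavy chain promoter drives the tetracycline transactivator in neurons, while the 17 ctrl-PBS mice were monogenic and had no driver. Peptides of TDP-43 were coupled to ovalbumin: TDP-10+12 mice (n = 10) received peptides 10 and 12, TDP-15 mice (n = 12) received peptide 15, and TDP-PBS (n = 10) and ctrl-PBS mice received PBS. Injections, of 40 µg for peptides, began at 8 weeks of age, with 5 before and 1 after doxycycline withdrawal at 25.5 weeks, and neocortex was taken 3 weeks later, at 28.5 weeks. No monogenic mice given a peptide were analysed here, so that peptide and driver cannot be told apart in the comparisons of TDP-10+12 and TDP-15 with ctrl-PBS.

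Each mouse gave 1 library of 17775738 to 21033608 counts. Mouse Tardbp ranged from 119.6 to 160.4 CPM in ctrl-PBS and from 91.9 to 137 in TDP-PBS, a log2 fold change of -0.30 (SE 0.05, edgeR adjusted p = 1.54e-06). Of 10 neuron markers, 7 were lower in each rNLS8 group, with a median log2 fold change of -0.33 in TDP-PBS. Their summed level was 8670.0 to 11154 CPM in ctrl-PBS and 6826 to 8400.1 in TDP-PBS. Of 9 microglia markers, 7 were higher in TDP-PBS, with sums of 231 to 279 CPM in ctrl-PBS against 302 to 463. None of the 6 oligodendrocyte, 5 endothelial and 3 blood markers was called in TDP-PBS, and of 8 astrocyte markers 1 was higher and 2 were lower. The tissue was whole neocortex, so that fewer cells of a type and less RNA per cell cannot be told apart, and the part of these markers in the results below was not tested. In 4 libraries the choroid plexus gene Ttr exceeded 1000 CPM (TDP-PBS replicate 1, TDP-10+12 replicates 2 and 4, TDP-15 replicate 6).

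Most of the called genes were lower in the rNLS8 groups. CPM is a gene's read count scaled by the library size and its TMM factor. A gene was called higher or lower at an adjusted p under 0.05, from the quasi-likelihood test of edgeR with Benjamini-Hochberg correction over all genes tested. In TDP-PBS against ctrl-PBS, 7 of the 96 genes rose and 32 fell. Those 39 calls were 40.6% of the set, beside 43.5% of all genes tested, with 33.3% falling beside 21.6% and 7.29% rising beside 21.9%. In TDP-10+12, 9 rose and 31 fell, which was 41.7% called beside 40.8% of all genes. In TDP-15, 11 rose and 33 fell, which was 45.8% called beside 46.9%. The share of calls in the set was thus near that of the transcriptome in each group, while the share called lower was above it. In TDP-10+12 and TDP-15 the share that fell was 32.3% and 34.4%, beside 20% and 23.2% of all genes, and the share that rose was 9.38% and 11.5%, beside 20.8% and 23.6%. These 3 comparisons share the 17 ctrl-PBS mice.

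The median log2 fold change over the 96 genes was -0.07 in TDP-PBS, -0.05 in TDP-10+12 and -0.06 in TDP-15, while with libraries scaled by their totals alone it was -0.0019, 0.020 and 0.022. The median over all genes tested was -0.00, 0.00 and -0.00 with TMM and 0.07, 0.08 and 0.08 with totals alone, and the set lay below it under both scalings. With totals alone, 17, 21 and 27 of the 96 genes were called higher and 26, 22 and 24 lower. Of all genes tested, 44.8%, 43.1% and 48.9% were then called, and 65.9%, 69% and 68.6% of those calls were higher. The median size of a called change was 0.24 on the log2 scale in TDP-PBS, beside 0.33 for all called genes, and 4, 1 and 2 called genes of the set moved by over 0.5 in the 3 groups. These were 10.3%, 2.5% and 4.55% of the called genes of the set, beside 28.3%, 27.9% and 28.4% of all called genes. The median coefficient of variation in ctrl-PBS was 8.09% for the set, beside 13.9% for all genes.

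Summed over the 96 genes, the level was 6129 to 7235 CPM (median 6739.6) in ctrl-PBS, 5580.4 to 7506 CPM (median 6434) in TDP-PBS, 6119 to 7056 CPM (median 6406) in TDP-10+12 and 6105 to 6951 CPM (median 6445) in TDP-15. The groups overlapped throughout, and the spread was widest in TDP-PBS, where replicate 2 was lowest and replicate 1 highest. In TDP-PBS, TDP-10+12 and TDP-15, respectively, 3, 4 and 4 of the 96 genes had every mouse below every ctrl-PBS mouse, or 3.12%, 4.17% and 4.17%, beside 2.58%, 2.59% and 3.08% of all genes tested. None of the 96 had every mouse above, beside 2.31%, 2.23% and 2.45% of all genes.

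**Figure D1:**
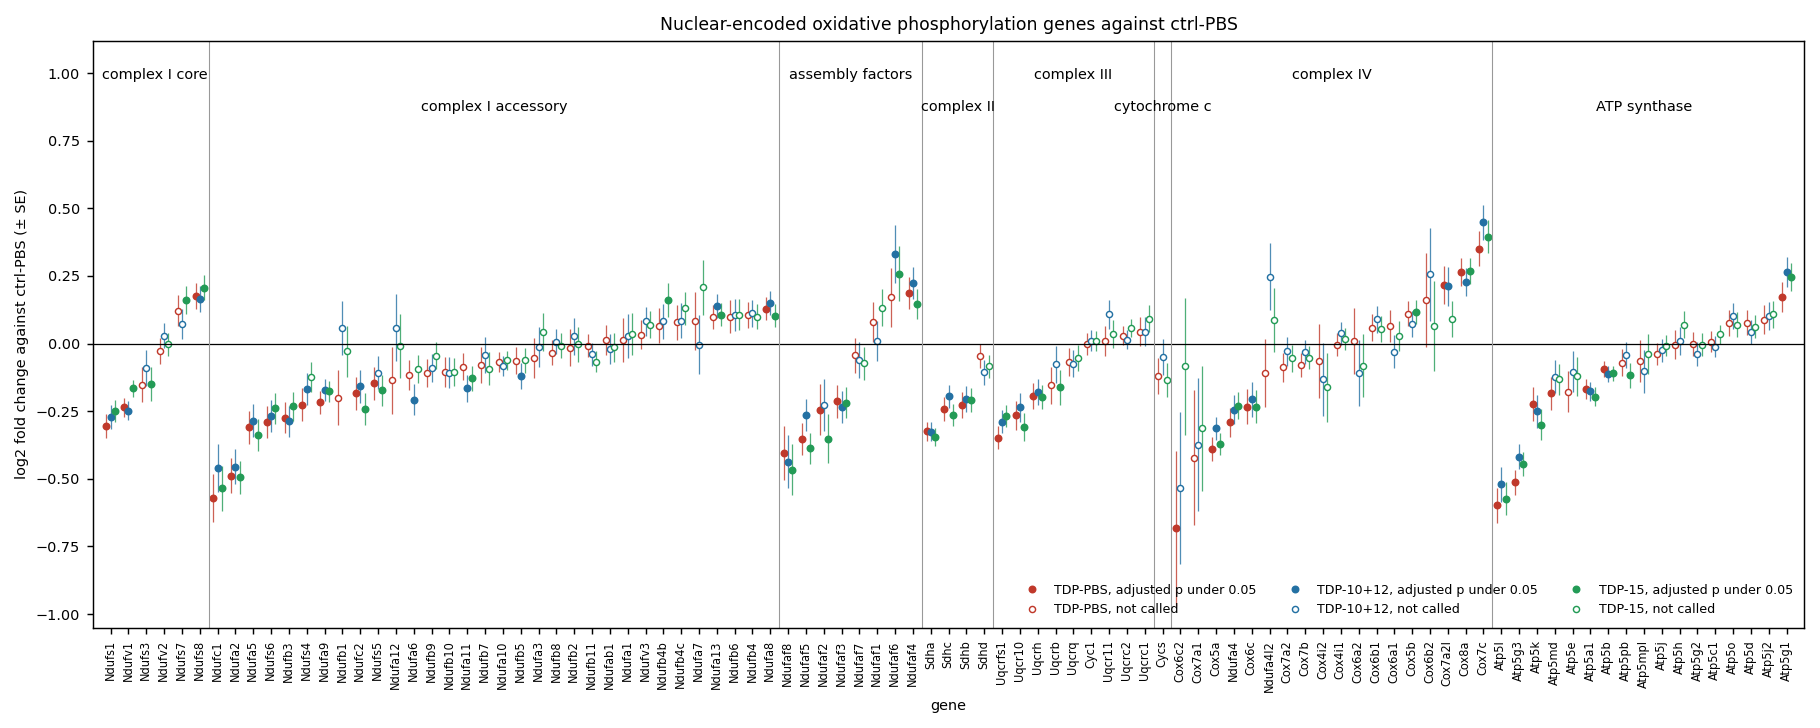
Log2 fold change (± SE) of 95 of the 96 genes (horizontal axis, grouped by complex and ordered by the TDP-PBS value) in TDP-PBS, TDP-10+12 and TDP-15 against the 17 ctrl-PBS mice, with filled points for an edgeR adjusted p under 0.05. In TDP-PBS, values ran from -0.68 (Cox6c2) to 0.35 (Cox7c).

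Complex II (succinate dehydrogenase), which is also an enzyme of the citric acid cycle, fell in 3 of its 4 genes. Sdha measured 164 to 191 (median 171) CPM in ctrl-PBS, 122 to 155 (median 139) in TDP-PBS, 124 to 155 (median 141) in TDP-10+12 and 125 to 146 (median 138) in TDP-15. Sdha encodes the flavoprotein that oxidizes succinate, and all 32 rNLS8 mice were under the ctrl-PBS range. The Sdha log2 fold change against ctrl-PBS was -0.32 (SE 0.03, adjusted p = 5.59e-11) in TDP-PBS, -0.33 (SE 0.03, adjusted p = 5.89e-11) in TDP-10+12 and -0.35 (SE 0.03, adjusted p = 1.18e-12) in TDP-15. Sdhb measured 56.8 to 71.5 (median 63.9) CPM in ctrl-PBS, 45.7 to 70.7 (median 52.5) in TDP-PBS, 47.8 to 66.2 (median 54.8) in TDP-10+12 and 49.6 to 61.4 (median 54.7) in TDP-15. Sdhb encodes the iron-sulfur subunit, and its groups overlapped in part: 7 of 10 TDP-PBS, 6 of 10 TDP-10+12 and 8 of 12 TDP-15 mice were below the ctrl-PBS range. The Sdhb log2 fold change against ctrl-PBS was -0.23 (SE 0.05, adjusted p = 9.66e-05) in TDP-PBS, -0.20 (SE 0.05, adjusted p = 0.000444) in TDP-10+12 and -0.21 (SE 0.05, adjusted p = 0.00013) in TDP-15.

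Sdhc measured 48.7 to 58.1 (median 53.8) CPM in ctrl-PBS, 39.96 to 56.4 (median 43.8) in TDP-PBS, 40.4 to 51.9 (median 46.6) in TDP-10+12 and 41.7 to 48.5 (median 43.96) in TDP-15. Sdhc encodes a membrane anchor, and 8 of 10 TDP-PBS, 7 of 10 TDP-10+12 and 12 of 12 TDP-15 mice were below the ctrl-PBS range. The Sdhc log2 fold change against ctrl-PBS was -0.24 (SE 0.04, adjusted p = 7.25e-06) in TDP-PBS, -0.20 (SE 0.04, adjusted p = 0.00022) in TDP-10+12 and -0.26 (SE 0.04, adjusted p = 4.08e-07) in TDP-15. Sdhd measured 23.1 to 28.5 (median 26.6) CPM in ctrl-PBS, 22.9 to 28.9 (median 25.4) in TDP-PBS, 21.3 to 26.6 (median 24.7) in TDP-10+12 and 20.7 to 28.8 (median 24.8) in TDP-15. For Sdhd, the other membrane anchor, the 4 groups overlapped. The Sdhd log2 fold change against ctrl-PBS was -0.05 (SE 0.05, adjusted p = 0.433) in TDP-PBS, -0.11 (SE 0.05, adjusted p = 0.0548) in TDP-10+12 and -0.08 (SE 0.04, adjusted p = 0.103) in TDP-15. Summed over the 4 genes, complex II was 299 to 337 CPM (median 318) in ctrl-PBS, 248 to 311 CPM (median 260.0) in TDP-PBS, 245 to 289 CPM (median 269) in TDP-10+12 and 250.3 to 272 CPM (median 262) in TDP-15. All TDP-10+12 and TDP-15 sums lay below the ctrl-PBS range, and 1 TDP-PBS mouse, replicate 1, lay within it.

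**Figure D2:**
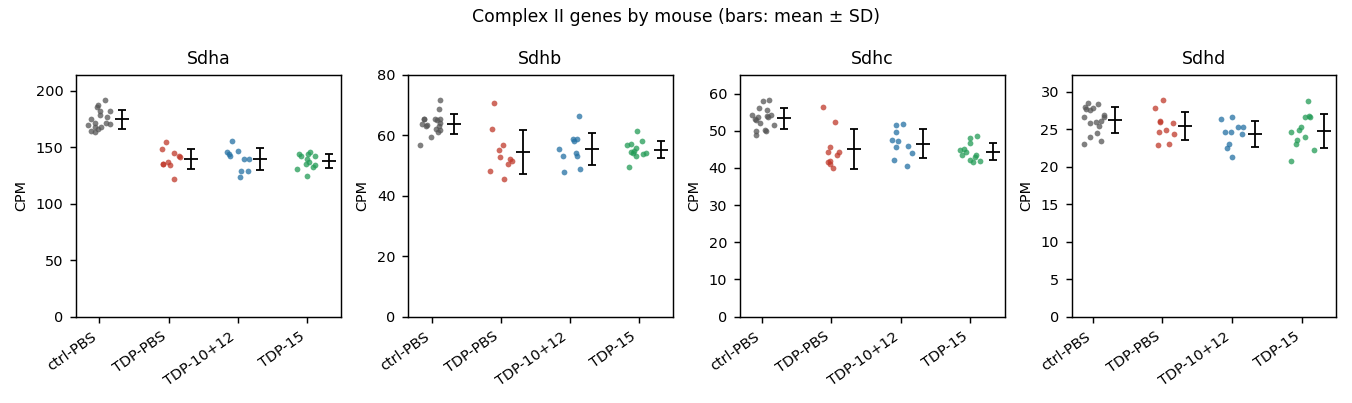
CPM (vertical axis, from 0) of the complex II genes Sdha, Sdhb, Sdhc and Sdhd in each of the 49 mice by group, with mean ± SD as bars. Sdha of all 32 rNLS8 mice lies below the ctrl-PBS range of 164 to 191 CPM, and Sdhd overlaps across groups.

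In ATP synthase, genes for the same product moved in opposite directions. The c subunit, which forms the ring that turns in the membrane, is encoded by Atp5g1, Atp5g2 and Atp5g3, whose mature proteins are identical and whose import presequences differ. Their RefSeq promoters (GRCm38.p6, 250 bases before to 50 after the start) are shown because these genes moved in different directions. They are written 5′ to 3′ on the gene's strand, with capitals at matches, on either strand, to the NRF1 motif (GCGC, any base, then TGCGC), named for a regulator of respiratory genes, and to TNAAGGTCA (ERR, for the estrogen-related receptors).

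Atp5g1 promoter, chr11:96075582-96075881, minus strand: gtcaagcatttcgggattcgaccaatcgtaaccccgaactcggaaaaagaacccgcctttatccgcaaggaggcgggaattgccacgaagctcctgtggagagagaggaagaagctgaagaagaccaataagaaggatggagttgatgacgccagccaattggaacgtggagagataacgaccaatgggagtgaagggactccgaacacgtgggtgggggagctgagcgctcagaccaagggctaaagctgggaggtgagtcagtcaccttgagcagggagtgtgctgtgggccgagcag

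Atp5g2 promoter, chr15:102670998-102671297, minus strand: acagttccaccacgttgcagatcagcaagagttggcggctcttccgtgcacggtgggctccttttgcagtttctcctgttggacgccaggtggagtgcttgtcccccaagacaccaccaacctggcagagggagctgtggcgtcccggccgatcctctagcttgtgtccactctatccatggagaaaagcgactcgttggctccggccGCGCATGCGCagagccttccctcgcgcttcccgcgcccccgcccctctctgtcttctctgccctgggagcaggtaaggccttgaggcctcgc

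Atp5g3 promoter, chr2:73911277-73911576, minus strand: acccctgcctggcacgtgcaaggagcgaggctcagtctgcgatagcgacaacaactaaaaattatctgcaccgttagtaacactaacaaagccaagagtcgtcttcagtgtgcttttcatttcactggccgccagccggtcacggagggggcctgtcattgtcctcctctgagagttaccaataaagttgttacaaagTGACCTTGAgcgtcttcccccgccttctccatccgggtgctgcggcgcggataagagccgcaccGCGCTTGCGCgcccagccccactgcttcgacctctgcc

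The Atp5g1 promoter held no match to these motifs, that of Atp5g2 held the NRF1 motif before the start, and that of Atp5g3 held the ERR motif before and the NRF1 motif after it. Atp5g3 measured 61.2 to 80.6 (median 69.8) CPM in ctrl-PBS, 43.5 to 62.6 (median 47.9) in TDP-PBS, 46.97 to 59.6 (median 51.3) in TDP-10+12 and 43.1 to 57.3 (median 51.1) in TDP-15. Atp5g3 was low in the rNLS8 groups: 9 of 10 TDP-PBS, 10 of 10 TDP-10+12 and 12 of 12 TDP-15 mice were below the ctrl-PBS range. The Atp5g3 log2 fold change against ctrl-PBS was -0.51 (SE 0.05, adjusted p = 6.16e-13) in TDP-PBS, -0.42 (SE 0.05, adjusted p = 2.7e-10) in TDP-10+12 and -0.45 (SE 0.04, adjusted p = 4.72e-12) in TDP-15. Atp5g1 measured 54.6 to 71.5 (median 65.2) CPM in ctrl-PBS, 60.3 to 94.8 (median 73.9) in TDP-PBS, 60.7 to 88.8 (median 78.1) in TDP-10+12 and 67.7 to 86.6 (median 74.4) in TDP-15. Atp5g1 ran the other way, with 6 of 10, 8 of 10 and 8 of 12 mice above the ctrl-PBS range. The Atp5g1 log2 fold change against ctrl-PBS was 0.17 (SE 0.06, adjusted p = 0.00933) in TDP-PBS, 0.27 (SE 0.06, adjusted p = 9.74e-05) in TDP-10+12 and 0.25 (SE 0.05, adjusted p = 0.000105) in TDP-15. Atp5g2 measured 47.98 to 60.9 (median 57.02) CPM in ctrl-PBS, 49.1 to 65.7 (median 53.7) in TDP-PBS, 49.2 to 61.4 (median 54.7) in TDP-10+12 and 47.5 to 63.9 (median 56.3) in TDP-15. Atp5g2 overlapped across all groups and was not called in any comparison. It falls outside the rule for named genes, as do Atp5b and was chosen after its values were seen.

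As a share of the summed CPM of the 3 genes, Atp5g3 made up 34.3 to 40.8% in ctrl-PBS, 25.5 to 30.7% in TDP-PBS, 25.8 to 30.98% in TDP-10+12 and 25.3 to 30.3% in TDP-15. Atp5g1 made up 29.5 to 36.5% in ctrl-PBS, 37.9 to 43.8% in TDP-PBS, 37.4 to 45.6% in TDP-10+12 and 38.4 to 43.7% in TDP-15. Both shares lay outside the ctrl-PBS range in all 32 rNLS8 mice. The share is taken within a library, so library scaling does not change it. The shares are parts of the same sum, so a fall of Atp5g3 alone raises the shares of Atp5g1 and Atp5g2. The Atp5g1 share is thus no separate result, and in CPM only part of the rNLS8 mice lay above the ctrl-PBS range of Atp5g1. The share was chosen after the values of the 3 genes were seen and is given with no test. The sum of the 3 genes changed less, from 165 to 204 CPM in ctrl-PBS (median 193) to 155 to 223 in TDP-PBS (median 174). Of the 100-base stretches in its transcripts, Atp5g2 shares 34.7% and Atp5g1 5.94% with other genes, Atp5g3 none, so that the counting can split reads of Atp5g2 and Atp5g1 with those genes.

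**Figure D3:**
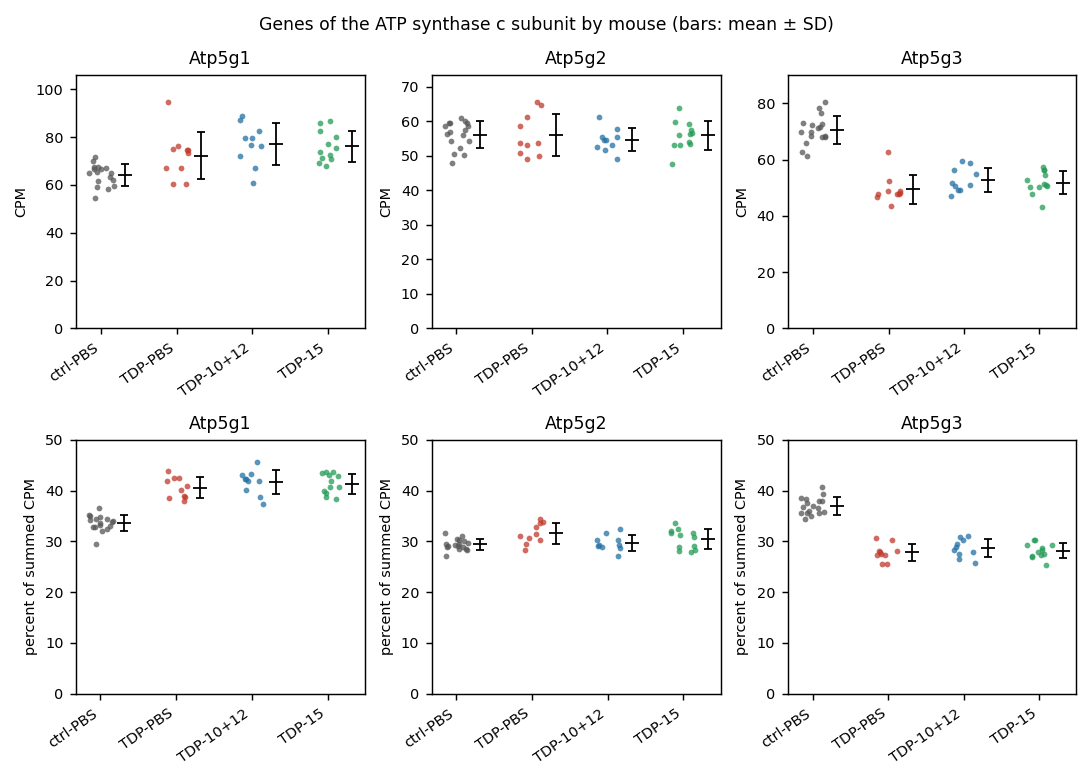
Upper row: CPM of Atp5g1, Atp5g2 and Atp5g3 in each mouse by group. Lower row: each gene's percent of their summed CPM, with mean ± SD as bars and axes from 0. In all 32 rNLS8 mice the Atp5g3 share is below, and the Atp5g1 share above, the ctrl-PBS range. The shares are tied, since they are parts of the same sum.

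Of the 17 ATP synthase genes, 1 rose and 6 fell in TDP-PBS, 1 and 5 in TDP-10+12, and 1 and 6 in TDP-15. Atp5l measured 30.97 to 43.7 (median 37.1) CPM in ctrl-PBS, 20.7 to 35.7 (median 22.7) in TDP-PBS, 23.2 to 28.4 (median 25.7) in TDP-10+12 and 21.2 to 27.7 (median 24.5) in TDP-15. Atp5l encodes subunit g of the membrane part, and 8 of 10 TDP-PBS, 10 of 10 TDP-10+12 and 12 of 12 TDP-15 mice were below the ctrl-PBS range. The Atp5l log2 fold change against ctrl-PBS was -0.60 (SE 0.06, adjusted p = 7.14e-11) in TDP-PBS, -0.52 (SE 0.06, adjusted p = 2.93e-09) in TDP-10+12 and -0.57 (SE 0.06, adjusted p = 2.81e-11) in TDP-15. Its transcripts share 69.00% of their 100-base stretches with 6 other genes, which makes the count of Atp5l uncertain. Atp5k, for subunit e, which takes part with subunit g in pairing of the enzyme, gave log2 fold changes of -0.22, -0.25 and -0.30 in TDP-PBS, TDP-10+12 and TDP-15, all called. Atp5a1 measured 744 to 919.6 (median 875) CPM in ctrl-PBS, 674 to 873 (median 767) in TDP-PBS, 692 to 809.7 (median 758) in TDP-10+12 and 708 to 799 (median 738) in TDP-15. Atp5a1 (subunit alpha) had the highest mean CPM of the class over the 49 mice, and its groups overlapped. The Atp5a1 log2 fold change against ctrl-PBS was -0.17 (SE 0.04, adjusted p = 0.000144) in TDP-PBS, -0.18 (SE 0.04, adjusted p = 7.57e-05) in TDP-10+12 and -0.20 (SE 0.03, adjusted p = 4.03e-06) in TDP-15. Atp5b, for the catalytic beta subunit, gave log2 fold changes of -0.09, -0.11 and -0.11, all called.

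In complex I, which takes electrons from NADH, core and accessory subunits moved both ways. Of the 7 core subunits, 1 rose and 3 fell in TDP-PBS, 1 rose and 3 fell in TDP-10+12, and 2 rose and 4 fell in TDP-15. Ndufs1 measured 56.7 to 69.5 (median 63.6) CPM in ctrl-PBS, 48.3 to 58.7 (median 50.8) in TDP-PBS, 46.2 to 57.2 (median 53.6) in TDP-10+12 and 47.3 to 62.5 (median 54.3) in TDP-15. Ndufs1 encodes the largest iron-sulfur subunit of the arm that binds NADH, and 9 of 10 TDP-PBS, 9 of 10 TDP-10+12 and 8 of 12 TDP-15 mice were below the ctrl-PBS range. The Ndufs1 log2 fold change against ctrl-PBS was -0.30 (SE 0.04, adjusted p = 1.03e-07) in TDP-PBS, -0.27 (SE 0.04, adjusted p = 1.39e-06) in TDP-10+12 and -0.25 (SE 0.04, adjusted p = 1.48e-06) in TDP-15. Ndufv1, the flavoprotein that binds NADH, gave log2 fold changes of -0.23, -0.25 and -0.17, all called. With library totals alone, Ndufv1 in TDP-15 was -0.08 and lost its call (adjusted p = 0.051). Ndufs8 measured 39.7 to 49.7 (median 45.1) CPM in ctrl-PBS, 42.3 to 59.5 (median 52.4) in TDP-PBS, 42.8 to 57.3 (median 51.7) in TDP-10+12 and 46.6 to 61.4 (median 52.5) in TDP-15. Ndufs8, an iron-sulfur subunit, was higher: 7 of 10 TDP-PBS, 6 of 10 TDP-10+12 and 9 of 12 TDP-15 mice were above the ctrl-PBS range. The Ndufs8 log2 fold change against ctrl-PBS was 0.18 (SE 0.05, adjusted p = 0.00289) in TDP-PBS, 0.17 (SE 0.05, adjusted p = 0.00539) in TDP-10+12 and 0.21 (SE 0.05, adjusted p = 0.000227) in TDP-15.

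Of the 32 genes classed as accessory subunits, which surround the core, 1 rose and 9 fell in TDP-PBS. The counts were 2 and 11 in TDP-10+12, and 3 and 9 in TDP-15. Ndufc1 measured 10.7 to 17.00 (median 12.7) CPM in ctrl-PBS, 6.38 to 9.88 (median 8.80) in TDP-PBS, 6.95 to 12.1 (median 8.89) in TDP-10+12 and 5.69 to 10.96 (median 9.16) in TDP-15. Ndufc1 is a small subunit of the membrane arm, and 10 of 10 TDP-PBS, 7 of 10 TDP-10+12 and 10 of 12 TDP-15 mice were below the ctrl-PBS range. The Ndufc1 log2 fold change against ctrl-PBS was -0.57 (SE 0.09, adjusted p = 4.19e-07) in TDP-PBS, -0.46 (SE 0.09, adjusted p = 2.24e-05) in TDP-10+12 and -0.54 (SE 0.08, adjusted p = 3.53e-07) in TDP-15. Ndufa2 measured 11.4 to 15.6 (median 14.6) CPM in ctrl-PBS, 8.73 to 13.3 (median 9.62) in TDP-PBS, 9.10 to 12.3 (median 9.94) in TDP-10+12 and 8.50 to 11.8 (median 10.00) in TDP-15. Ndufa2 is a subunit of the arm outside the membrane, and 8 of 10 TDP-PBS, 8 of 10 TDP-10+12 and 11 of 12 TDP-15 mice were below the ctrl-PBS range. The Ndufa2 log2 fold change against ctrl-PBS was -0.49 (SE 0.07, adjusted p = 1.69e-08) in TDP-PBS, -0.46 (SE 0.07, adjusted p = 9.34e-08) in TDP-10+12 and -0.49 (SE 0.06, adjusted p = 2.1e-09) in TDP-15. Ndufa5 was lower, with log2 fold changes of -0.31, -0.28 and -0.34, while Ndufa8 was higher, with 0.13, 0.15 and 0.10, each called in all 3 groups. Ndufa7 had the highest mean CPM of the class over the 49 mice. It stood at 86.3 ± 15.1 CPM (SD, n = 17) in ctrl-PBS and was not called in any group. With library totals alone, Ndufa7 was called higher in TDP-15 (edgeR adjusted p = 0.0179). Of the exon bases of Ndufa2, 11.5% lie under another gene, so that its count is uncertain. The Ndufa8 call in TDP-15 was lost when any 1 of 10 mice was left out.

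The Ndufaf genes encode proteins that build complex I and are not part of it. Of 8, 1 rose and 4 fell in TDP-PBS, 2 and 3 in TDP-10+12, and 2 and 4 in TDP-15. Ndufaf5 measured 15.7 to 21.7 (median 17.5) CPM in ctrl-PBS, 10.4 to 17.99 (median 14.1) in TDP-PBS, 13.7 to 17.4 (median 15.1) in TDP-10+12 and 12.7 to 15.8 (median 13.8) in TDP-15. Ndufaf5 modifies a core subunit during assembly, and 9 of 10 TDP-PBS, 7 of 10 TDP-10+12 and 11 of 12 TDP-15 mice were below the ctrl-PBS range. The Ndufaf5 log2 fold change against ctrl-PBS was -0.35 (SE 0.06, adjusted p = 3.09e-06) in TDP-PBS, -0.26 (SE 0.06, adjusted p = 0.000282) in TDP-10+12 and -0.39 (SE 0.06, adjusted p = 1.1e-07) in TDP-15. Ndufaf8, a partner of Ndufaf5, gave log2 fold changes of -0.40, -0.44 and -0.47, all called, at a level of 5.67 ± 0.65 CPM (SD, n = 17) in ctrl-PBS. Ndufaf2 was called lower in TDP-PBS and TDP-15 (log2 fold changes -0.24 and -0.35), and 65.6% of its exon bases lie under another gene. The TDP-PBS call of Ndufaf2 was lost when any 1 of 8 mice was left out. Ndufaf4 measured 16.4 to 22.7 (median 18.2) CPM in ctrl-PBS, 18.7 to 24.2 (median 21.7) in TDP-PBS, 18.7 to 30.2 (median 21.01) in TDP-10+12 and 16.2 to 23.2 (median 21.2) in TDP-15. Ndufaf4, an early assembly factor, was higher in the rNLS8 groups, with wide overlap. The Ndufaf4 log2 fold change against ctrl-PBS was 0.19 (SE 0.06, adjusted p = 0.00907) in TDP-PBS, 0.22 (SE 0.06, adjusted p = 0.00187) in TDP-10+12 and 0.15 (SE 0.06, adjusted p = 0.0287) in TDP-15. The Ndufaf4 call in TDP-15 was lost without a filter on low counts (adjusted p = 0.0578) and without the Ttr-high mice (adjusted p = 0.0577). Ndufaf6 was called higher in TDP-10+12 (0.33) and TDP-15 (0.26), with 0.17 (adjusted p = 0.204) in TDP-PBS. Its TDP-15 call was lost when any 1 of 5 mice was left out. That call was also lost with sex as a covariate (edgeR adjusted p = 0.0532), without a filter on low counts (0.0677) and without the Ttr-high mice (0.0912).

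In the main fit, complex III held lower calls and no higher one, and cytochrome c was not called. Of 9 complex III genes, none rose and 3 fell in TDP-PBS, none and 3 in TDP-10+12, and none and 4 in TDP-15. Uqcrfs1 measured 36.1 to 45.7 (median 41.5) CPM in ctrl-PBS, 27.02 to 35.8 (median 32.7) in TDP-PBS, 30.5 to 38.2 (median 32.6) in TDP-10+12 and 30.5 to 37.2 (median 33.5) in TDP-15. Uqcrfs1 encodes the Rieske iron-sulfur protein, and 10 of 10 TDP-PBS, 9 of 10 TDP-10+12 and 9 of 12 TDP-15 mice were below the ctrl-PBS range. The Uqcrfs1 log2 fold change against ctrl-PBS was -0.35 (SE 0.04, adjusted p = 3.03e-09) in TDP-PBS, -0.29 (SE 0.04, adjusted p = 2.52e-07) in TDP-10+12 and -0.27 (SE 0.04, adjusted p = 2.21e-07) in TDP-15. Uqcr10 and Uqcrh, small subunits, gave -0.26, -0.23 and -0.31 and -0.19, -0.18 and -0.20, all called. With library totals alone, Uqcrh in TDP-10+12 was -0.10 and lost its call (adjusted p = 0.0697). Uqcrc1, a core subunit with the highest mean CPM of the class over the 49 mice, and Cyc1, which holds cytochrome c1, were not called in any group. In ctrl-PBS and TDP-PBS, Uqcrc1 was 299 ± 17.5 CPM (SD, n = 17) and 308 ± 49.2 (SD, n = 10), and Cyc1 was 76.5 ± 3.07 and 76.5 ± 6.25. With library totals alone, Uqcrc1 (edgeR adjusted p = 0.00374) and Cyc1 (edgeR adjusted p = 0.0365) were called higher in TDP-15. Uqcrc1 was also called higher there with the 2 groups alone (edgeR adjusted p = 0.024). Cycs measured 68.3 to 90.8 (median 78.5) CPM in ctrl-PBS, 55.1 to 90.8 (median 70.2) in TDP-PBS, 63.9 to 106 (median 71.7) in TDP-10+12 and 60.7 to 82.95 (median 71.9) in TDP-15. Cycs, the electron carrier between complexes III and IV, overlapped across groups. The Cycs log2 fold change against ctrl-PBS was -0.12 (SE 0.07, adjusted p = 0.147) in TDP-PBS, -0.05 (SE 0.07, adjusted p = 0.59) in TDP-10+12 and -0.13 (SE 0.06, adjusted p = 0.0749) in TDP-15. Cycs was called lower in TDP-PBS without the Ttr-high mice (edgeR adjusted p = 0.0483) and in TDP-15 with the 2 groups alone (0.0207). Of its 100-base stretches, 24.7% are shared with 3 other genes.

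Complex IV (cytochrome c oxidase) held calls in both directions, 3 higher and 4 lower of 18 in TDP-PBS, 3 and 3 in TDP-10+12, and 3 and 3 in TDP-15. Cox5a measured 51.5 to 61.6 (median 59.1) CPM in ctrl-PBS, 38.3 to 52.9 (median 43.6) in TDP-PBS, 41.8 to 51.5 (median 48.1) in TDP-10+12 and 39.9 to 52.7 (median 44.7) in TDP-15. Cox5a, a subunit on the matrix side, was low: 9 of 10 TDP-PBS, 9 of 10 TDP-10+12 and 11 of 12 TDP-15 mice were below the ctrl-PBS range. Another gene covers 12.8% of the Cox5a exon bases, and 13.6% of its 100-base stretches are shared, so that its count is uncertain. The Cox5a log2 fold change against ctrl-PBS was -0.39 (SE 0.04, adjusted p = 9.53e-11) in TDP-PBS, -0.31 (SE 0.04, adjusted p = 2.75e-08) in TDP-10+12 and -0.37 (SE 0.04, adjusted p = 5.61e-11) in TDP-15. Ndufa4 measured 51.5 to 68.3 (median 57.7) CPM in ctrl-PBS, 41.4 to 58.1 (median 46.7) in TDP-PBS, 42.6 to 57.7 (median 48.5) in TDP-10+12 and 41.6 to 55.2 (median 51.5) in TDP-15. Ndufa4 is a complex IV subunit that was first assigned to complex I, and 8 of 10 TDP-PBS, 8 of 10 TDP-10+12 and 6 of 12 TDP-15 mice were below the ctrl-PBS range. The Ndufa4 log2 fold change against ctrl-PBS was -0.29 (SE 0.05, adjusted p = 1.08e-05) in TDP-PBS, -0.24 (SE 0.05, adjusted p = 0.000165) in TDP-10+12 and -0.23 (SE 0.05, adjusted p = 0.00015) in TDP-15.

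Cox7c measured 34.97 to 51.4 (median 41.9) CPM in ctrl-PBS, 46.1 to 65.6 (median 51.9) in TDP-PBS, 44.4 to 70.8 (median 55.4) in TDP-10+12 and 46.6 to 67.3 (median 54.4) in TDP-15. Cox7c is a small subunit that spans the membrane, and 5 of 10 TDP-PBS, 8 of 10 TDP-10+12 and 9 of 12 TDP-15 mice were above the ctrl-PBS range. The Cox7c log2 fold change against ctrl-PBS was 0.35 (SE 0.06, adjusted p = 1.09e-05) in TDP-PBS, 0.45 (SE 0.06, adjusted p = 8.67e-08) in TDP-10+12 and 0.39 (SE 0.06, adjusted p = 3.43e-07) in TDP-15. Of its 100-base stretches, 17.6% are shared with 2 other genes. Cox8a measured 235 to 294 (median 255) CPM in ctrl-PBS, 255 to 360.2 (median 329) in TDP-PBS, 253 to 331 (median 307) in TDP-10+12 and 251 to 341 (median 313) in TDP-15. Cox8a also spans the membrane, and 6 of 10 TDP-PBS, 7 of 10 TDP-10+12 and 11 of 12 TDP-15 mice were above the ctrl-PBS range. The Cox8a log2 fold change against ctrl-PBS was 0.27 (SE 0.05, adjusted p = 2.61e-05) in TDP-PBS, 0.23 (SE 0.05, adjusted p = 0.000258) in TDP-10+12 and 0.27 (SE 0.05, adjusted p = 7.69e-06) in TDP-15. Cox7a2l, which takes part in joining complexes III and IV, was called higher in TDP-PBS and TDP-10+12, with log2 fold changes of 0.22 (SE 0.07, adjusted p = 0.0107) and 0.21 (SE 0.07, adjusted p = 0.014), and in TDP-15 the value was 0.09 (SE 0.07, adjusted p = 0.276). In the direct comparison of TDP-15 with TDP-PBS, Cox7a2l gave -0.13 (adjusted p = 1). Without the Ttr-high mice, its TDP-10+12 call was lost (adjusted p = 0.0925). With library totals alone, Cox7a2l was called higher in TDP-15 as well (edgeR adjusted p = 0.0326). Cox6c2, at 0.437 ± 0.179 CPM (SD, n = 17) in ctrl-PBS, gave -0.68 (SE 0.29, adjusted p = 0.0486) in TDP-PBS, and that call was lost under 6 of the 8 other settings that tested the gene and when any 1 of 34 mice was left out.

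**Figure D4:**
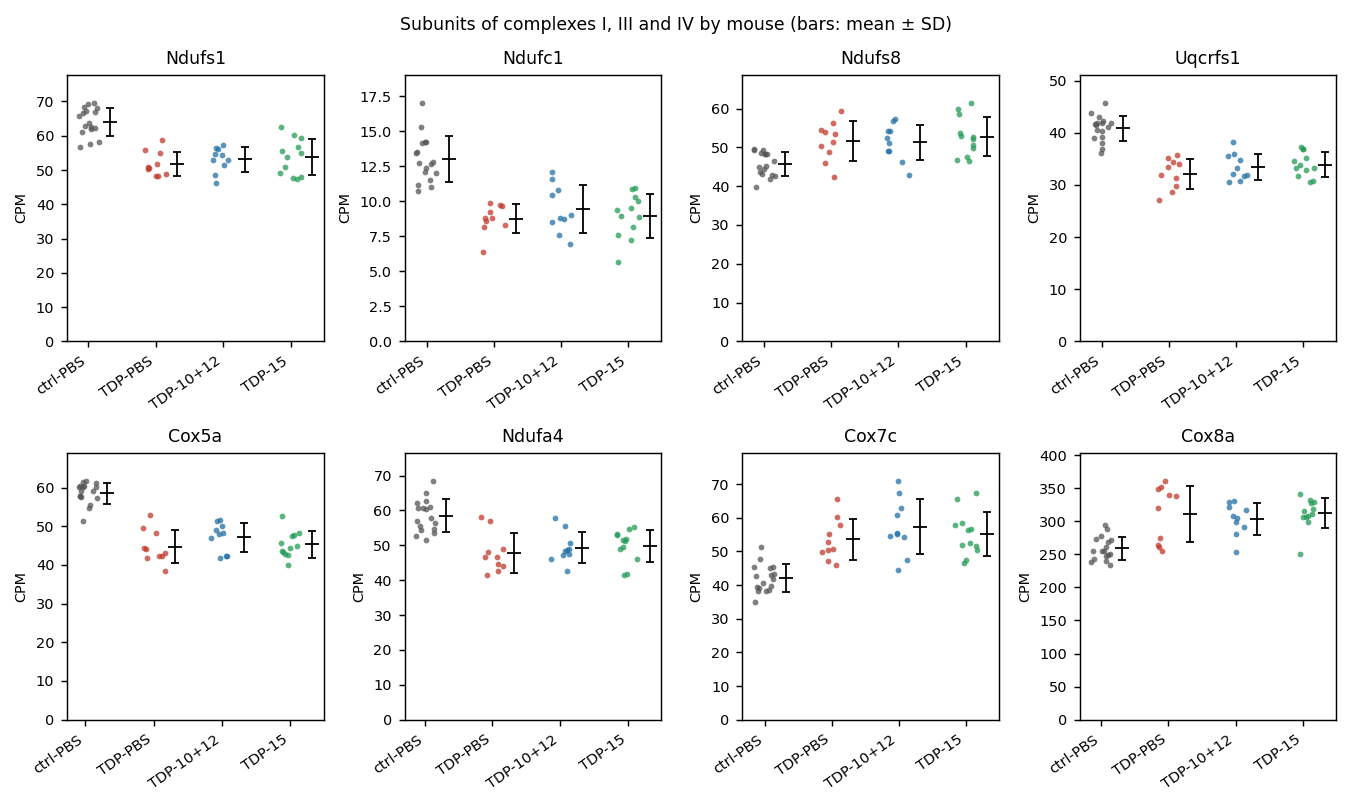
CPM (vertical axes, from 0) of 8 subunit genes of complexes I, III and IV in each mouse by group, with mean ± SD as bars. Ndufs1, Ndufc1, Uqcrfs1, Cox5a and Ndufa4 sit lower in the 3 rNLS8 groups than in ctrl-PBS, and Ndufs8, Cox7c and Cox8a sit higher, with partial overlap in most panels.

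Several complex IV subunits exist in a common form and a form of other tissues or conditions. In neocortex the common forms stood at the higher level, and Cox6a2 was still measured at 10.1 CPM in ctrl-PBS, against 0.495 for Cox7a1. Per kilobase of transcript, ctrl-PBS means were 211 CPM for Cox4i1 against 2.87 for the oxygen-responsive Cox4i2, and 203 for Cox6b1 against 2.84 for Cox6b2, known from testis. Cox6a1 was at 465 CPM per kilobase against 14.9 for Cox6a2, and Cox7a2 at 72.2 against 1.26 for Cox7a1, the latter of each pair being known from heart and skeletal muscle. Ndufa4 was at 129 CPM per kilobase against 3.77 for the hypoxia-responsive Ndufa4l2. Apart from Ndufa4, none of these genes was called in any rNLS8 group against ctrl-PBS. With library totals alone, Cox6b1 was called higher in all 3 groups, and Cox4i1 and Ndufa4l2 in TDP-10+12. Without the Ttr-high mice, Cox6b1 was called higher in TDP-10+12 (edgeR adjusted p = 0.0359).

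Immunization was compared directly with PBS within the rNLS8 mice. None of the 96 genes was called in TDP-10+12 against TDP-PBS, in TDP-15 against TDP-PBS or in TDP-10+12 against TDP-15, where 0% of all genes tested were called by edgeR, and DESeq2 and limma-voom also called none of the 96. At an unadjusted p under 0.05 there were 2, 0 and 1 of the 96 genes, beside 5.23%, 3.03% and 6.83% of all genes. The median log2 fold changes of the set were 0.02, 0.01 and 0.01. The 95% confidence interval of a gene reached a median of 0.13, 0.12 and 0.12 to either side on the log2 scale, with the widest at 0.66, 0.61 and 0.60.

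The smallest p-values in these comparisons fell on weakly expressed genes and on Ndufv1. Ndufa4l2 gave 0.36 (95% interval 0.07 to 0.64, adjusted p = 0.926) in TDP-10+12 against TDP-PBS. Ndufv1, with 43.1 to 54.1 CPM in TDP-10+12 and 50.2 to 56.2 in TDP-15, gave -0.08 (95% interval -0.16 to -0.01, adjusted p = 0.685) between these groups. Cox6c2 gave 0.60 (95% interval -0.02 to 1.21, adjusted p = 1) in TDP-15 against TDP-PBS. Sdha and Atp5g3, which stood apart from ctrl-PBS, were not called between the rNLS8 groups. TDP-15 against TDP-PBS gave -0.02 (95% interval -0.10 to 0.05, edgeR adjusted p = 1) for Sdha, and TDP-10+12 against TDP-PBS gave 0.10 (95% interval -0.01 to 0.20, adjusted p = 0.953) for Atp5g3.

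Sex was examined in the 27 PBS-treated mice, with 10 females and 7 males in ctrl-PBS and 4 females and 6 males in TDP-PBS. Of 95 genes of the set that passed the filter there, none was called for an interaction of genotype and sex by edgeR, and 0% of all genes tested were, and limma-voom and DESeq2 also called none of the 95. At an unadjusted p under 0.05 there were 22 of the 95, or 23.2%, beside 6.32% of all genes. The 95 genes come from the same mice and can move together, so this share is not a test. The median interaction was -0.16 on the log2 scale, more negative in females, beside 0.00 for all genes. The median log2 ratio of TDP-PBS to ctrl-PBS means was -0.17 in females and -0.01 in males. The smallest adjusted p was 0.741, shared by 6 genes, of which Cox7b, a complex IV gene on chromosome X, had the smallest unadjusted p. In ctrl-PBS, Cox7b was 50.7 to 60.7 CPM (median 56.3) in females and 48.3 to 58.5 CPM (median 54.9) in males. In TDP-PBS it was 45.1 to 48.9 CPM (median 47.3) in the 4 females and 49.6 to 60.6 CPM (median 55.4) in the 6 males. Cox7b was picked by its p among the 95 genes, so these values are no separate evidence. The TDP-PBS replicates with the lowest sums over the set, 2 and 10, were both female, and replicate 1, the highest, was male. Within ctrl-PBS, none of the 95 genes was called between the sexes by edgeR, beside 0.0518% of all genes. At an unadjusted p under 0.05 there were 2, or 2.11%, beside 4.13% of all genes. The smaller of these p-values was that of Ndufaf6, with -0.35 (SE 0.13, adjusted p = 1).

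**Figure D5:**
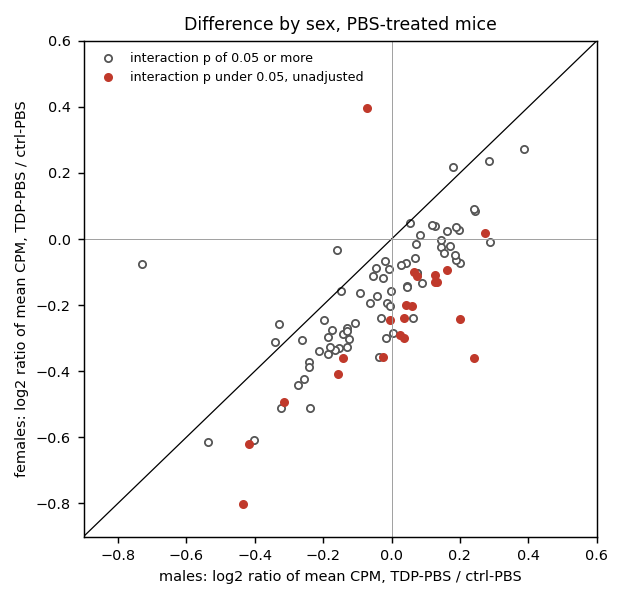
Log2 ratio of mean CPM of TDP-PBS to ctrl-PBS in females (vertical axis) against males (horizontal axis) for 95 genes, with the line of equality and filled points for an unadjusted interaction p under 0.05. Of the 95 genes, 89 lie below the line, and none passed the corrected test. The genes come from the same mice and are not independent.

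Called genes of the set had lengths near those of the rest. The median transcript was 861 bases for genes higher in TDP-PBS, 772 for lower and 742 for genes not called, and 90 of the 96 had a transcript. Their GC content had medians of 54.4% for higher, 50.3% for lower and 52.5% for genes not called, beside 51.8%, 51.2% and 51.5% for all genes. Of the 77 genes with a RefSeq promoter, 24.7% held the NRF1 motif, beside 5.19% of all 27025 genes with a promoter of the same 300 bases, on either strand. CCGGAAG (GABPA, the other nuclear respiratory factor) stood in 24.7% beside 9.93%, and AANATGGCG (YY1) in 14.3% beside 2.76%. TNAAGGTCA (ERR) stood in 3.9% beside 1.43%. The NRF1 motif stood in 7 of 25 promoters of genes lower in TDP-PBS, 2 of 7 of genes higher and 10 of 45 of genes not called. In the same order, the GABPA motif stood in 6, 2 and 11, YY1 in 6, 0 and 5, and ERR in 1, 0 and 2. These counts are small and were not tested. A match is a run of letters and does not show binding.

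Genes that work with these complexes moved in both directions. Beside these lists and the marker lists, 21.9% of all genes tested rose and 21.6% fell in TDP-PBS. The shares were 20.8% and 20% in TDP-10+12 and 23.6% and 23.2% in TDP-15. Of the 13 subunits encoded in the mitochondrial DNA, 1 was lower in TDP-PBS (ND4L, log2 fold changes -0.25, -0.14 and -0.25 in TDP-PBS, TDP-10+12 and TDP-15), none was called in TDP-10+12 and 4 were lower in TDP-15 (ND2, ND4, ND4L and CYTB). Their summed level was 121532 to 160570.0 CPM in ctrl-PBS and 103177 to 148844 in TDP-PBS, with wide overlap. Of 41 assembly factors with other symbols, 3 rose and 14 fell in TDP-PBS, 3 and 15 in TDP-10+12, and 4 and 17 in TDP-15. Sdhaf4, an assembly factor of complex II, gave -0.66, -0.58 and -0.50 in the 3 groups, and Cox11, a copper factor of complex IV, gave 0.32, 0.42 and 0.39, all called. These had the most negative and the most positive called value in TDP-PBS, the rule by which the genes of the next lists are also named.

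Of 25 genes of mitochondrial import and carriers, 5 rose and 12 fell in TDP-PBS, 4 and 11 in TDP-10+12, and 5 and 14 in TDP-15. The import receptor gene Tomm70a gave -0.60, -0.56 and -0.61 in the 3 groups and the prohibitin gene Phb 0.27, 0.33 and 0.29. Of 18 citric acid cycle genes, 3 rose and 7 fell in TDP-PBS, 3 and 8 in TDP-10+12, and 3 and 8 in TDP-15. Sucla2, a subunit of succinyl-CoA ligase, gave -0.53, -0.48 and -0.53, and the pyruvate carboxylase gene Pcx 0.27, 0.15 and 0.27. Of 17 glycolysis genes, 1 rose and 10 fell in TDP-PBS, 1 and 11 in TDP-10+12, and 1 and 11 in TDP-15. Pgk1, for phosphoglycerate kinase, gave -0.62, -0.60 and -0.60, and the hexokinase gene Hk2 0.85, 0.61 and 0.82. Of 83 mitochondrial ribosomal protein genes, 18 rose and 11 fell in TDP-PBS, 18 and 12 in TDP-10+12, and 21 and 12 in TDP-15, with Mrpl16 at -0.45, -0.49 and -0.39 and Mrpl50 at 0.46, 0.40 and 0.48.

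Of 23 regulators of mitochondrial and respiratory genes, 9 rose and 2 fell in TDP-PBS, 6 and 2 in TDP-10+12, and 9 and 0 in TDP-15. In TDP-PBS the mitochondrial transcription factor gene Tfb2m (0.51), Ppard (0.45), Yy1 (0.37), the mitochondrial helicase gene Twnk (0.30) and Ppara (0.28) rose. So did Ppargc1b (0.23), Gabpb1 (0.19), Pprc1 (0.18) and Hcfc1 (0.14), and Esrrg (-0.19) and Tfam (-0.18), which packages mitochondrial DNA, fell. The other 12 were not called there: Esrrb (-0.19), Tfb1m (-0.15), Gabpa (-0.04), Esrra (-0.02), Gabpb2 (0.00), Ppargc1a (0.01), Sirt3 (0.03), Hif1a (0.04), Nrf1 (0.05), Polrmt (0.06), Sirt1 (0.12) and Tefm (0.27). Values in parentheses are log2 fold changes. Of the remaining marker lists, 3 of 6 parvalbumin interneuron genes, 1 of 6 pericyte and smooth muscle genes and 1 of 2 skeletal muscle genes tested were lower in TDP-PBS, and no choroid plexus gene of 3 was called there, while all 3 were higher in TDP-10+12 and 1 in TDP-15.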

How the data were processed

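Neocortex RNA was taken from 49 mice, 1 library per mouse, and sequenced on a DNBSEQ instrument as 100 bp paired-end reads after an mRNA library preparation. The authors deposited raw read counts per gene for GRCm38.p6 (mm10). Per the labels, their processing notes name HISAT, HISAT2, Bowtie, Bowtie2 and RSEM, while annotation, strand setting and rounding are not given in the sources used here. Genes with shared sequence or overlapping exons can therefore gain or lose counts. Totals ran from 17775738 to 21033608 counts, with a median of 19955601.

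Groups were taken from the labels. Of 45252 genes, 18220 passed filterByExpr (minimum count 10). They were scaled by TMM and fitted over all 49 mice with edgeR 4.0.16 in R 4.3.3, by the quasi-likelihood F test with group as the only term. P-values were adjusted by Benjamini-Hochberg over all genes tested, with a threshold of 0.05, in 6 comparisons of groups. The sex tests used the 27 PBS-treated mice. Alternatives used limma 3.58.1 (limma-voom), DESeq2 1.42.0, other scaling and filters, sex as a covariate, the 2 groups alone, and each mouse left out in turn. A fit without mice with over 1000 CPM of Ttr was added after seeing the data. The fit was run on simulated data with 200 changed genes. Those changes were larger than most called in the set, and no result here rests on that run. Gene positions and promoters came from RefSeq (GRCm38.p6), and transcript lengths, exon overlap and shared 100-base stretches from GENCODE.

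The members and lists were chosen with earlier results of these data known. Named genes are, in each complex, up to 3 called genes in each direction with the most extreme log2 fold change in TDP-PBS against ctrl-PBS, the one with the highest mean CPM, the complex II genes, Cycs, Cyc1, isoform pairs, and the smallest p where a comparison called none. 1 gene of the set is counted but not reported here.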

Additional observations from a re-analysis of the deposited data

Results flagged for a closer look

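In groups of 10 mice, a mouse stood far from the rest by Dixon's test (a gap to the nearest mouse over 0.466 of the range) for 7 of 114 values tested, where chance gives about 1 in 20. In TDP-PBS, replicate 1, one of the Ttr-high mice, was highest for Atp5g1 at 94.79 CPM (next 76.29), for Atp5g3 at 62.64 CPM (next 52.23) and for the sum of the complex II genes at 310.9 CPM (next 274.9, group median 260). TDP-PBS replicate 2 was lowest for Ndufc1 at 6.383 CPM (next 8.153, group median 8.80). In TDP-10+12, replicate 8 was highest for Cycs at 105.6 CPM (next 82.7) and for Ndufaf4 at 30.18 CPM (next 22.9). TDP-10+12 replicate 4, also Ttr-high, was highest for the sum of the complex III genes at 794.3 CPM (next 738.9). The cause of these values was not tested.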

How the results depend on the processing

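Scaling by library totals alone raised the genes called higher to 17 in TDP-PBS, 21 in TDP-10+12 and 27 in TDP-15, and moved the set's medians to -0.0019, 0.020 and 0.022, as the median of all genes moved to 0.07, 0.08 and 0.08. Of all calls, 65.9%, 69% and 68.6% were then higher, against 50.4%, 51% and 50.5%. Without a filter on low counts, 6 genes were higher in TDP-15. With 1 mouse left out in turn, TDP-PBS had 7 to 12 genes higher (12 without TDP-PBS replicate 2 and 11 without TDP-PBS replicate 7 or 10 or any 1 TDP-10+12 mouse, of which the cause was not tested), 28 to 37 lower and a median of -0.09 to -0.04. TDP-10+12 had 9 to 14 higher (14 without TDP-10+12 replicate 2), 28 to 34 lower and a median of -0.07 to -0.03. TDP-15 had 8 to 15 higher, 30 to 35 lower and a median of -0.07 to -0.04. Between rNLS8 groups 0 of the 96 genes were called throughout, and the medians ran from -0.001 to 0.05 for TDP-10+12 against TDP-PBS, from -0.008 to 0.05 for TDP-15 against TDP-PBS and from -0.008 to 0.02 for TDP-10+12 against TDP-15. Without the Ttr-high mice, 7 rose and 39 fell in TDP-PBS. For the named genes, 1309 values kept their side of the threshold, 15 moved past it and 17 lost it, and no called value changed sign. No paired analysis was possible because every mouse is a separate animal and replicate numbers only name mice.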
